A study of Mus musculus with 26 samples.

Results

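Complement gene expression was examined in RNA sequencing of left ventricle, the main pumping chamber of the heart, from 26 mice. The 9 genes described are C7, C6, C3, C4b, C1qa, C1qb, C1qc, C1s1 and Serping1, out of 56941 genes listed. They were chosen by name, with earlier results of these data known, which limits the tests of all members. C7 was picked for its large difference between male and female mice, so its sex difference is given below as a description without a test. Of the 9 genes, 8 passed the filter on low counts and C6 did not.

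Every mouse carried loxP-flanked (floxed) alleles of Ppp2r2a, which encodes B55-alpha, a regulatory subunit of protein phosphatase 2A. Knockout mice (cKO) had the genotype aMHC-CreTg/0-Ppp2r2aL/L, in which the alpha-myosin heavy chain promoter drives Cre recombinase in cardiomyocytes. Floxed controls (Ctrl) had the genotype aMHC-Cre0/0-Ppp2r2aL/L and lacked Cre. The groups held 6 males and 6 females of Ctrl genotype and 7 males and 7 females of cKO genotype, all aged 12 to 16 weeks and all given saline for 2 weeks from an implanted osmotic minipump. The floxed line was C57BL6/N and the Cre line FVB, so the background was mixed, although the strain field reads C57BL/6N. Mice carrying Cre alone were not analysed here, so loss of Ppp2r2a, the presence of Cre and FVB sequence linked to it cannot be told apart. Within a sex, cKO mice were compared with Ctrl mice, and within a genotype, females with males.

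Complement is a cascade of plasma proteins that marks and lyses targets. In the classical pathway C1q, built from the chains C1qa, C1qb and C1qc, binds a target and activates the proteases C1r and C1s, which cleave C4 and C2. The resulting enzyme cleaves C3, the component on which all routes converge, and the terminal components C5 to C9, C6 and C7 among them, then assemble into the membrane attack complex. Serping1 encodes C1 inhibitor, which blocks C1r and C1s. Most circulating components are made in the liver, whereas C1q is made mainly by macrophages, and in tissue several components are also made locally by fibroblasts and other stromal cells.

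The depth was 14403102 to 30867399 counts per mouse. Levels are in CPM, a gene's count scaled to its library's TMM-adjusted total, and are given as mean ± SD over mice. Ppp2r2a itself was 37.4 ± 10.2 CPM in Ctrl males (n = 6), 14.1 ± 1.81 in cKO males (n = 7), 40.4 ± 3.60 in Ctrl females (n = 6) and 13.4 ± 2.07 in cKO females (n = 7), and no cKO mouse reached the lowest Ctrl mouse. Ctrl males 3 and 6 lay below the other Ctrl males in Ppp2r2a, and results that change without them are given below. Xist and Ddx3y separated the sexes as labelled in all 26 mice. Ventricular markers passed the filter in 7 of 7 cases, while of 4 atrial marker genes Myl7 and Sln had 11 and 14 counts over all mice, and Myl4 and Nppa, with 825 and 210268 counts, passed it. Nppa, which stressed ventricles also express, had a cKO-minus-Ctrl log2 difference of 1.15 in males (SE 0.39, edgeR adjusted p = 0.171) and 0.75 in females (SE 0.39, edgeR adjusted p = 0.948). The libraries come from whole tissue, so fewer cells of a type and less RNA per cell cannot be told apart.

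C7 and C4b were the members in which females and males stood farthest apart. C7 was 9.31-fold lower in Ctrl females than in Ctrl males and 7.83-fold lower in cKO females than in cKO males. C4b was 2.57-fold and 2.43-fold lower. The other 6 members that could be tested did not pass the test for sex, and no member passed it for genotype.

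The starts of 3 of these genes are shown for reference. Sequences are the 250 bases before the RefSeq start in GRCm38.p6, with letters in lower case and motif matches in capitals, and 6 of the 9 genes had an entry. C7 is shown because of its sex difference, and C1qb and C1qc because their levels moved together across mice.
C7 (chr15:5063774-5064023, minus strand): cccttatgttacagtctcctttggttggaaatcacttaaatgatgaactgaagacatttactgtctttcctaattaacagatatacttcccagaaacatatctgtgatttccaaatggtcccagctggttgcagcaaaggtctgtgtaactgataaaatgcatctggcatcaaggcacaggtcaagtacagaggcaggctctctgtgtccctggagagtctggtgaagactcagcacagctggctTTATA
C1qb (chr4:136886201-136886450, minus strand): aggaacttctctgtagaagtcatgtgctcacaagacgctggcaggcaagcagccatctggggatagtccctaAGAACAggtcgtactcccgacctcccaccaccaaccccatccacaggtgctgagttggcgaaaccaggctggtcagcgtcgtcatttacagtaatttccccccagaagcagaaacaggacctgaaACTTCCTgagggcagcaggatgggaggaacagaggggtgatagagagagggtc
C1qc (chr4:136892915-136893164, minus strand): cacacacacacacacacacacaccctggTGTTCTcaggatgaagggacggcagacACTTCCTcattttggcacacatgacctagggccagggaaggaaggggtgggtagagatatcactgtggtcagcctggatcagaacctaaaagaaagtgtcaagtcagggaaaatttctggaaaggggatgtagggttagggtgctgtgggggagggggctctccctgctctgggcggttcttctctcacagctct
In C7 the capitals mark TATAA on the opposite strand, in the last 5 bases before the start. In C1qb and C1qc they mark AGGAAGT, 53 and 195 bases before the start, and AGAACA, 178 and 222 bases before it, read on either strand. AGGAAGT is the core bound by the macrophage factor PU.1, and AGAACA is the single-site form of the steroid receptor element bound by androgen and glucocorticoid receptors. Over 32817 mouse promoters of the same length, 22.8% held TATAA, 7.69% AGGAAGT and 16.1% AGAACA. The palindromic steroid receptor element (AGAACA and TGTTCT spaced by 3 bases) was in 0.00914% and the estrogen receptor element (GGTCA and TGACC spaced by 3 bases) in 0.064%. The C/EBP motif (TTGC and AA spaced by 2 bases) was in 9.57%, and among members it occurred in C3, 45 bases before the start, and in C1s1, 242 bases before it. Both strands were searched for each motif. The C7 window held no AGAACA, while C1s1 held it 30 bases before 1 RefSeq start and 68 bases before another. None of the windows of the 6 members with an entry held either palindrome. C4b, C1qa and Serping1 had no entry and were not searched. A match describes letters and shows no binding, and a missing match in these 250 bases shows no lack of it.

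C7 encodes the component that lets the C5b-6 complex attach to a membrane. In Ctrl males it ranged from 13.96 to 38.0 CPM with a median of 24.0. In cKO males it ranged from 17.9 to 39.0 with a median of 23.7. Both male groups covered nearly the same range. In Ctrl females it ranged from 1.71 to 4.58 CPM with a median of 2.62, and in cKO females from 1.36 to 5.54 with a median of 3.15. The female values were low throughout: 13 of 13 females lay below every male, and the lowest male exceeded the highest female 2.52-fold. On the raw scale this was 315 to 979 counts in a male and 22 to 110 in a female. On the log2 scale the female-minus-male difference was -3.22 (SE 0.29) in Ctrl mice and -2.97 (SE 0.26) in cKO mice. Among 15357 genes tested, C7 ranked 6 from the lowest of these differences in each genotype, a rank that follows from how it was chosen. The coefficient of variation between mice of 1 group was 28.7% to 43.3%. Beside these values, 8 fibroblast markers summed to 2459.9 CPM in Ctrl males, 2718 in cKO males, 2479.5 in Ctrl females and 2704 in cKO females. Gsn alone held 1217 to 2001 CPM of that sum in a mouse. The median of the markers' sex differences was 0.0029 in Ctrl and -0.05 in cKO on the log2 scale. The differences ran from -0.26 to 0.39 in Ctrl and from -0.50 to 0.26 in cKO, with 4 above 0 and 4 below in each. Of these 8, only Col1a2 passed the test for sex, with -0.40 in cKO mice (edgeR adjusted p = 0.0307). Markers of the epicardium summed to group means of 5.76 to 9.45 CPM, the highest in Ctrl females. Without Ctrl female 2, a mouse at 25.6 CPM, the Ctrl female mean was 6.23 ± 1.91 (SD, n = 5). Wt1 alone held 25.5 CPM in that mouse. Of these markers Wt1 and Krt19, with 3172 and 516 counts over all mice, passed the filter. Msln, Upk3b, Upk1b and Lrrn4, with 17, 30, 11 and 5 counts, did not.

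**Figure D1:**
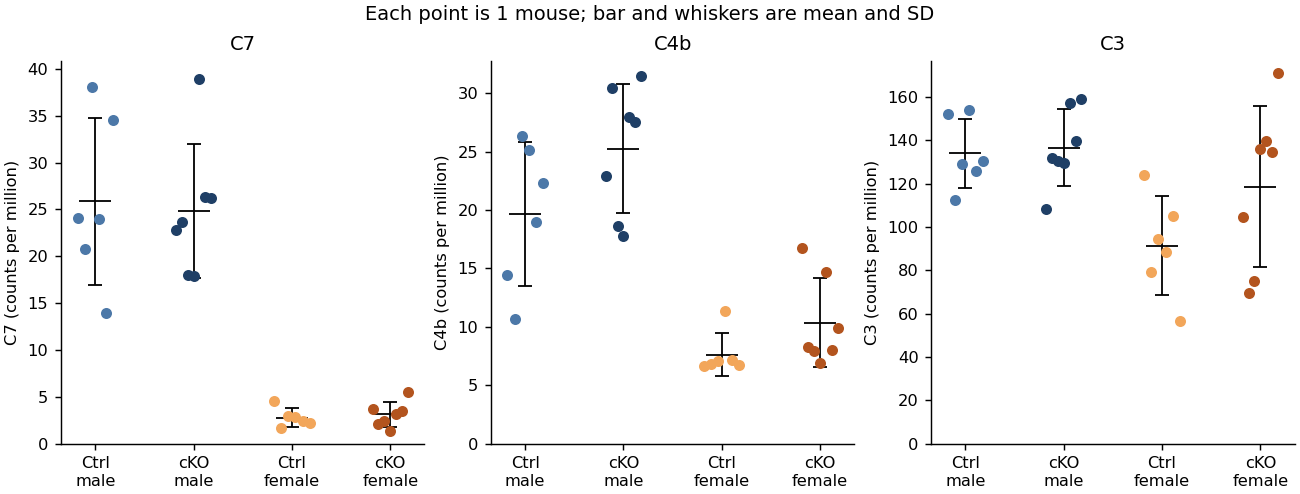
Level of C7, C4b and C3 in each mouse (vertical axis, CPM) by group, with bars and whiskers for the mean and SD. Every male lies above every female for C7, whereas for C4b and C3 the sexes overlap in part.

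The genotype contrasts of C7 were not used in choosing it and were tested. In males the cKO-minus-Ctrl difference was -0.06 on the log2 scale (SE 0.23, edgeR adjusted p = 0.948), and 0.26 without Ctrl males 3 and 6 (edgeR adjusted p = 0.698). In females it was 0.19 (SE 0.31, edgeR adjusted p = 0.987). Neither exceeded the spread between mice, and the exact two-sided permutation test of mean log2 CPM over all 1716 splits gave p = 0.902 in males and p = 0.72 in females, where 0.000583 is the smallest p it can give. The 2 sexes' genotype effects differed by 0.25 (SE 0.39, edgeR adjusted p = 0.999). A genotype difference of the size of these errors was not detectable with 6 and 7 mice a group.

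C6, which forms the complex to which C7 binds, was near the limit of detection. It had 58 counts in all 26 libraries together and 0 to 6 in a library. Its mean was 0.0905 CPM in Ctrl males, 0.125 in cKO males, 0.0791 in Ctrl females and 0.126 in cKO females. A floor of 3 counts corresponds to 0.0972 to 0.208 CPM in these libraries, so the C6 groups were at or near it and no fold is given. C6 lies near C7 on chromosome 15, with 2 genes between them in RefSeq order, and C7 stood above it in every library. Of the tested neighbours in RefSeq order, Oxct1 and BC037032 lie before C6, Gm16374 between C6 and C7, and Card6 and Rpl37 after C7. Their female-minus-male log2 differences ran from -0.47 to 0.23 and none passed edgeR's test, the smallest edgeR adjusted p being 0.0962 for Rpl37 in cKO mice.

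C4b encodes C4, whose cleavage places C4b on the target surface. Levels in Ctrl males ranged from 10.7 to 26.4 CPM with a median of 20.7, and in Ctrl females from 6.67 to 11.3 with a median of 6.91. The female values lay low, but the highest female exceeded the lowest male, so the groups overlapped by 1 mouse on each side. In cKO males C4b ranged from 17.7 to 31.5 CPM with a median of 27.5, and in cKO females from 6.86 to 16.7 with a median of 8.26, and these groups did not overlap. The difference was -1.36 on the log2 scale in Ctrl mice (SE 0.24, edgeR adjusted p = 0.00339), and 6 of 6 females were below the male mean. Without Ctrl males 3 and 6 it was -1.19 (edgeR adjusted p = 0.0491). In cKO mice it was -1.28 (SE 0.22, edgeR adjusted p = 0.00208), with 7 of 7 females below the male mean. Of the 7 members tested for sex, with C7 set aside, C4b alone passed in each genotype. Of all genes tested, 0.638% were called in the Ctrl sex contrast and 2.7% in the cKO one, and 1.02% and 1.09% had groups that did not overlap. Lower calls made up 0.352% and 1.27%. Of the marker genes, the ventricular Myl2 and Tnni3 were higher in cKO females than in cKO males, by 0.26 and 0.24 (edgeR adjusted p = 0.0231 and 0.00821). The fibroblast marker Col1a2 was lower, as given above. In that contrast 6 of 7 ventricular markers were above 0, whereas of 8 fibroblast markers 4 were above 0 and 4 below. The part of these markers in the C4b result was not tested.

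By genotype C4b did not pass the test. The cKO-minus-Ctrl log2 difference was 0.36 in males (SE 0.21, edgeR adjusted p = 0.495) and 0.44 in females (SE 0.24, edgeR adjusted p = 0.948). Averaged over sexes it was 0.40 (SE 0.16), with an unadjusted p of 0.0188 and an edgeR adjusted p of 0.226. C4a, a near copy of C4b that encodes the sex-limited protein, was at 0.288 to 0.540 CPM by group mean. How reads shared by the pair were counted is not given in the sources used here, so both values carry that uncertainty. The female-minus-male difference of C4a was -0.38 in Ctrl (SE 0.40, edgeR adjusted p = 0.773) and 0.52 in cKO (SE 0.35, edgeR adjusted p = 0.468).

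C3, the central component, varied more between females than between males, with coefficients of variation of 12.0% and 12.9% in Ctrl and cKO males and of 25.01% and 31.3% in Ctrl and cKO females. It ranged from 112 to 154 CPM in Ctrl males with a median of 129.9 and from 108 to 159 in cKO males with a median of 132. In Ctrl females it ranged from 56.8 to 124 with a median of 91.7, and in cKO females from 69.6 to 171 with a median of 135. Ctrl females lay mostly below the male range, whereas cKO females spread across it and beyond. The sex difference was -0.55 in Ctrl (SE 0.18, unadjusted p = 0.00639, edgeR adjusted p = 0.185) and -0.20 in cKO (SE 0.17, edgeR adjusted p = 0.601). The cKO-minus-Ctrl difference in females was 0.38 (SE 0.18, unadjusted p = 0.0458, edgeR adjusted p = 0.948), and in males 0.03 (SE 0.18, edgeR adjusted p = 0.972). The difference between these genotype effects was 0.35 (SE 0.25, edgeR adjusted p = 0.999), so the sexes were not shown to differ in it.

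**Figure D2:**
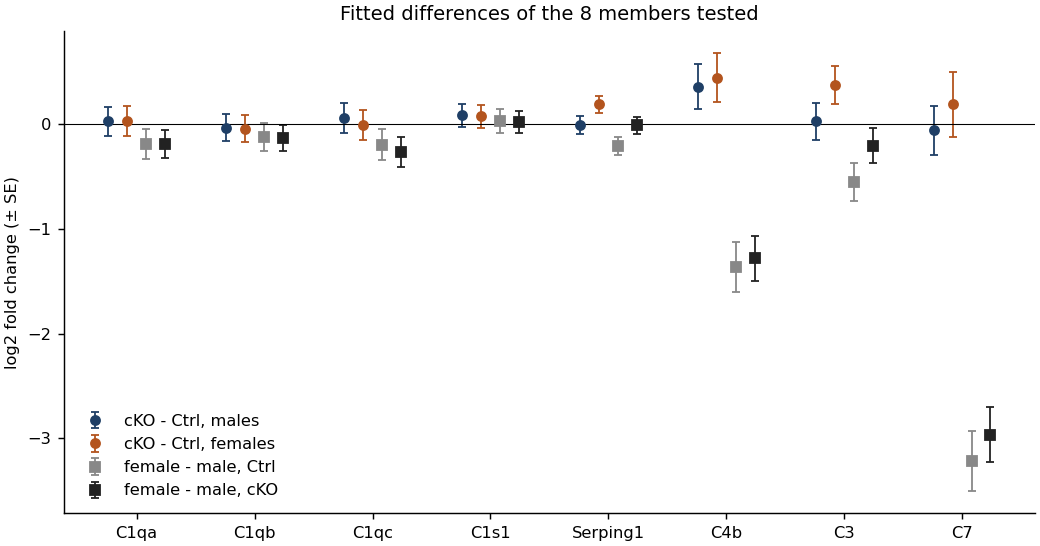
Fitted log2 fold changes with SE for the 8 members tested, for the genotype contrasts in each sex and the sex contrasts in each genotype. C7 stands near -3 in both sex contrasts and C4b near -1.3, while the genotype values run from -0.06 to 0.44, the highest for C4b in females.

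The 3 chains of C1q did not pass the test in any contrast. C1qa was 51.7 ± 10.3 CPM in Ctrl males (n = 6), 52.8 ± 9.83 in cKO males (n = 7), 45.3 ± 7.73 in Ctrl females (n = 6) and 46.3 ± 7.21 in cKO females (n = 7). Group means of C1qb lay from 33.9 to 38.0 CPM and those of C1qc from 38.7 to 46.6. The female-minus-male log2 differences of the 3 chains were -0.12 to -0.26, none past edgeR's test (smallest adjusted p = 0.339, for C1qc in cKO). Genotype differences were at most 0.06 in size and did not pass it either. The chains kept a steady proportion over 26 mice: C1qa was 38.6 ± 1.32% of their summed CPM, C1qb 28.3 ± 1.30% and C1qc 33.1 ± 1.65%.

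The C1q genes also moved together from mouse to mouse. After the 4 group means were removed, C1qa and C1qb correlated with Pearson r = 0.951 and Spearman rho = 0.887 over 26 mice. The permutation p of r was 1e-05, the smallest that 100000 resamples can give (adjusted p = 2e-05), and that of rho 2e-05. Without the 2 mice farthest from the median, r was 0.942. For C1qa and C1qc r was 0.915 and rho 0.884, and for C1qb and C1qc r was 0.916 and rho 0.895, each with a permutation p of 1e-05. Without the 2 farthest mice these r values were 0.894 and 0.884. The mean of the 3 chains followed the mean of 9 macrophage markers with r = 0.816 and rho = 0.788 (permutation p = 4e-05 and 6e-05, adjusted p = 7e-05 for r), or r = 0.824 without the 2 farthest mice. Within sexes that r was 0.928 in males and 0.668 in females. Summed macrophage markers were 207 CPM in Ctrl males (152 to 270), 216 in cKO males (174 to 275), 176 in Ctrl females (148 to 198) and 185 in cKO females (151 to 232). The female-minus-male difference was below 0 for 8 of 9 markers in Ctrl and 9 of 9 in cKO, with none of the 9 past the test. Their part in the C1q values of females was not tested. These 4 relations and 3 others formed a family of 7, adjusted together. C1s1 with Serping1 gave r = 0.413 (permutation p = 0.0466, adjusted p = 0.0653) and rho = 0.455 (permutation p = 0.0304), and r = 0.317 without the 2 farthest mice. C3 with C4b gave r = 0.205 (permutation p = 0.372, adjusted p = 0.372) and rho = 0.195 (permutation p = 0.374), and r = 0.144 without the 2 farthest mice. C7 with the mean of 8 fibroblast markers gave r = 0.352 (permutation p = 0.106, adjusted p = 0.123) and rho = 0.359 (permutation p = 0.0979), and r = 0.241 without the 2 farthest mice.

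**Figure D3:**
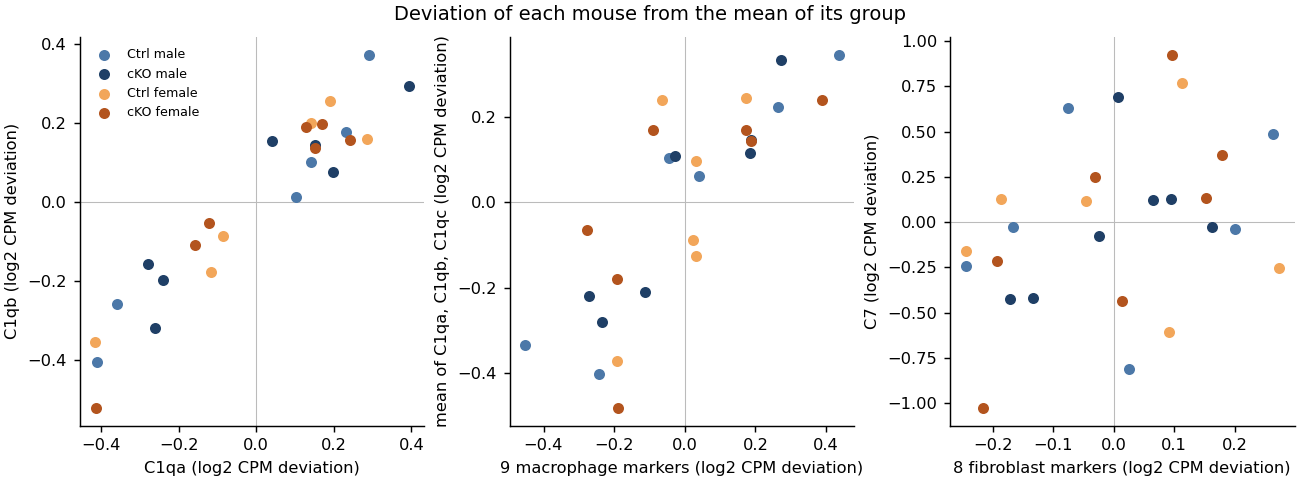
Deviation of each mouse from its group mean in log2 CPM, for C1qb against C1qa, the C1q mean against the macrophage marker mean, and C7 against the mean of 8 fibroblast markers. Points are mice coloured by group; the first pair follows a straight line closely, with r = 0.951.

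C1s1, the protease that cleaves C4, and Serping1, its inhibitor, did not pass the test in any contrast either. C1s1 was 23.7 ± 5.26 CPM in Ctrl males (n = 6), 25.2 ± 3.31 in cKO males (n = 7), 24.3 ± 2.96 in Ctrl females (n = 6) and 25.6 ± 1.91 in cKO females (n = 7). Its sex differences were 0.03 and 0.02 on the log2 scale, with SEs of 0.11 and 0.10. C1s1 has a close copy, C1s2, at 1.28 to 1.42 CPM by group mean, and the same limit on read assignment applies. Serping1, the most abundant member per length, was 149 ± 17.3 CPM in Ctrl males (n = 6), 148 ± 10.5 in cKO males (n = 7), 129 ± 14.8 in Ctrl females (n = 6) and 147 ± 19.9 in cKO females (n = 7). The Ctrl females had the lowest mean, and their difference from Ctrl males was -0.21 (SE 0.09, unadjusted p = 0.0221, edgeR adjusted p = 0.307). Within females the cKO-minus-Ctrl difference was 0.19 (SE 0.08, unadjusted p = 0.0299, edgeR adjusted p = 0.941), and the genotype effects of the sexes differed by 0.20 (SE 0.12, edgeR adjusted p = 0.999).

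**Figure D4:**
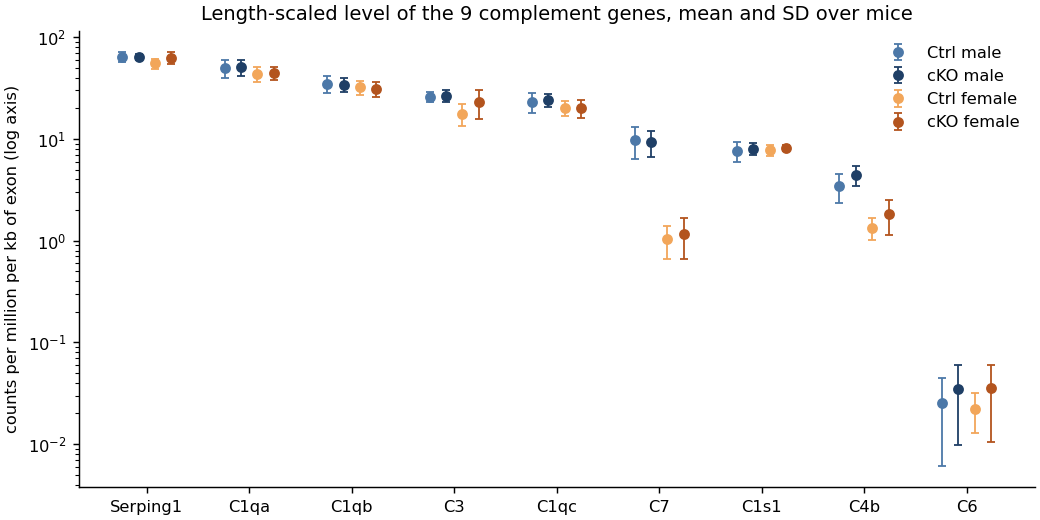
Length-scaled level of the 9 genes (log axis, CPM per kilobase of exon), with mean and SD over mice by group. The gap between male and female values is widest for C7, and C6 lies far below the others.

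Levels of different genes were compared per kilobase of exon, using GENCODE M21 exon lengths. In Ctrl males Serping1 was at 63.9 CPM per kilobase, C1qa at 49.8, C1qb at 34.9, C3 at 26.1, C1qc at 23.1, C7 at 9.67, C1s1 at 7.58, C4b at 3.45 and C6 at 0.0255. The neighbours C3 and C1qc lay within each other's SD, and C1s1 lay within the SD of C7 but C7 not within that of C1s1. In Ctrl females C7 was at 1.04 CPM per kilobase, below C1s1 (7.76) and C4b (1.34), and C7 and C4b lay within each other's SD.

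Counted over the members, no gene passed edgeR's test for genotype in males (background 0.443% of all genes), in females (0.0326%), in the mean of the sexes (1.33%) or in the difference between sexes (0%). Nor did any member's Ctrl and cKO mice separate fully in males (1.28% of all genes did) or in females (0.169%). At an unadjusted p under 0.05 the counts were 0 of 8 in males (13.2% of all genes), 2 of 8 in females (5.15%), 1 of 8 in the mean (14.1%) and 0 of 8 in the difference between sexes (3.96%), and DESeq2 and limma voom also called 0 after adjustment. The median log2 difference of the 8 was 0.03 in males and 0.13 in females, against 0.001 and 0.0028 over all genes tested. The 7 tested members other than C7 included 3 lower in Ctrl females at an unadjusted p under 0.05 (12.1% of all genes passed it in either direction) and 1 lower in cKO females (17.3%). They had a median sex difference of -0.19 in each genotype, against 0.0039 in Ctrl and 0.0067 in cKO over all genes.

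Of 57 complement genes, members included, 39 were tested. With C7 set aside, C4b alone of 38 passed the test for sex in both genotypes. Of all genes, 0.638% passed it in Ctrl and 2.7% in cKO. For the mean genotype effect only Clu of 39 passed (1.33% of all genes did), with a difference of 0.24 (SE 0.06, unadjusted p = 0.000632, edgeR adjusted p = 0.0481). Clu encodes clusterin, which binds and holds back the terminal complex. It was 669.8 ± 79.6 CPM in Ctrl males (n = 6), 791 ± 65.97 in cKO males (n = 7), 622 ± 97.2 in Ctrl females (n = 6) and 735 ± 77.0 in cKO females (n = 7). The same direction held in males (0.24, edgeR adjusted p = 0.21) and in females (0.24, edgeR adjusted p = 0.872), where it did not pass. The call was lost when any of 21 of the 26 mice was left out, the adjusted p then reaching 0.0945. It was kept without Ctrl male 2, cKO male 3, Ctrl female 4, Ctrl female 5 or cKO female 2. Beside this, fibroblast markers were above 0 in the same contrast in 8 of 8 cases (median 0.14, none past the test), and the ventricular markers Myl3 and Tnni3 were lower, by -0.17 and -0.17 (edgeR adjusted p = 0.00965 and 0.0168). Their part in the Clu result was not tested. Cd59a, which blocks the membrane attack complex, had a mean genotype difference of -0.09 (SE 0.03, edgeR adjusted p = 0.175). By smallest p, C1qbp was second to Clu in males at -0.11 (SE 0.05, edgeR adjusted p = 0.271), and Cd55, a membrane inhibitor of C3 cleavage, was second in females at 0.28 (SE 0.11, edgeR adjusted p = 0.918). Of the terminal genes other than C7, C8g alone was tested, and Hc, C8a, C8b and C9 had 0 to 2 counts in all libraries together.

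Among 15356 genes compared with C7 across the 26 mice, after the group means were removed, 0610009E02Rik had r = 0.786, Gm43681 r = 0.757, Mthfd2 r = 0.722 and Shisal1 r = 0.694, which placed them among the 5 highest. In the same order their group means were low, at 1.03 to 1.09, 1.03 to 1.13, 2.98 to 4.52 and 0.45 to 1.31 CPM. Within males r was 0.674, 0.924, 0.663 and 0.4345, and within females 0.851, 0.638, 0.762 and 0.851. Among members C4b had r = 0.479, Serping1 0.475, C3 0.448 and C1qc 0.292, and C1qa, C1qb and C1s1 lay from 0.102 to 0.156. These are descriptions of the same 26 libraries, with no test.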

How the data were processed

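Left ventricle RNA (500 ng) went into strand-specific, poly-A selected libraries, with RNA integrity numbers of at least 7.7, per the labels. The deposited matrix holds the authors' raw counts, as whole numbers without normalization. FastQC 0.74, cutadapt 4.6, STAR 2.7.11a, HTSeq and build GRCm39 are named in the submitters' processing notes. The annotation release and strand setting of the counting are not given in the sources used here. Rows without a gene name numbered 310 and held 0.0106% of counts.

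The members and gene lists were chosen with earlier results of these data known. All 26 mice were fitted in edgeR 4.0.16 (R 4.3.3) with 4 group means, filterByExpr at a minimum count of 10, TMM scaling and robust quasi-likelihood F tests. Benjamini-Hochberg adjustment ran over 15357 genes, with calls at an adjusted p under 0.05. CPM used TMM-scaled totals, and log2 CPM a prior count of 2. A complement list of 57 genes and marker lists were described by counts and medians. The genes named were the members, Ppp2r2a, listed genes past the threshold, the 3 listed genes of smallest p, paralogs, neighbours and the 5 genes most correlated with C7, and 1 gene that this rule selects is not reported here. In 72 same-group pairs no counts agreed within sampling noise (chi-square per degree of freedom 7.34 to 36.5). SE is the fold change over the root of F. Labels number replicates without saying whether mice were littermates, and p-values of group differences set them against the spread between these samples. Correlations of same-numbered mice ran from -0.17 to 0.404 and were not over 0.1 in every pair, so the numbers were not taken to pair mice. This strict rule does not exclude pairing. Methods were tested on simulated data. Alternatives were DESeq2 1.42.0, limma 3.58.1 voom, other filters, thresholds and scaling, a replicate block, and each mouse left out. Group means without Ctrl female 2 or cKO male 5 were chosen after seeing the data. Promoters came from RefSeq GRCm38.p6 and exon lengths from GENCODE M21.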

Additional observations from a re-analysis of the deposited data

Results flagged for a closer look

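A C7 value in cKO male 5 stood apart from its group, at 38.97 CPM against 26.36 CPM in the next highest of the 7 cKO males. The second value that stood apart was C4b in Ctrl female 4, at 11.3 CPM against 7.13 CPM in the next of 6 Ctrl females; this mouse gives the overlap with Ctrl males in C4b. Over the 36 groups examined, chance alone flags about 1.8.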

How the results depend on the processing

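The number of members called was the same under every alternative run and with each of the 26 mice left out. C4b passed in both genotypes throughout, with adjusted p from 5.99e-07 (DESeq2 Wald test) to 0.0491 (without Ctrl males 3 and 6) in Ctrl mice and from 2.43e-07 to 0.0116 in cKO mice. The count on the wider list for the mean genotype effect was 1, and became 2 with the DESeq2 Wald test, and 0 with no filter, with the replicate block, with no robust estimation, at an adjusted p under 0.01 and without Ctrl males 3 and 6. Leaving out single mice gave 0 to 1. Over all genes 205 were called, and 549 with the DESeq2 Wald test. In the order of the settings that gave 0 on the list, all-gene calls were 113, 170, 210, 23 and 249. For the sex contrast in cKO mice the list count was 1, and became 2 with the DESeq2 Wald test, with limma voom and at an adjusted p under 0.1, each adding Cfd. Calls over all genes also rose there, from 414 to 707, 670 and 880. With single mice left out the list count was 1 to 2 (2 without cKO male 5 or cKO female 3). The adjusted p of Clu ranged from 0.0093 to 0.107 over the alternatives, and the cause of these changes was not tested.

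Several small log2 differences of uncalled genes turned sign, and the cause was not tested. Without Ctrl males 3 and 6 the male genotype difference became 0.26 for C7, 0.087 for C1qb and 0.062 for Serping1, the Ctrl sex difference of C1s1 became -0.0021, and the difference between the sexes' genotype effects became -0.071 for C7 and -0.092 for C4b. With the replicate block, C3 and C1qa in males became -0.032 and -0.011, and the mean effect of C7 became -0.0245. With limma voom, C1qa in females became -0.0088 and the C4b difference between sexes -0.045. With single mice left out, male genotype differences ranged from -0.20 to 0.085 for C7, -0.018 to 0.077 for C3, -0.044 to 0.089 for C1qa, -0.11 to 0.047 for C1qb, -0.011 to 0.14 for C1qc and -0.046 to 0.046 for Serping1. Female ones ranged from -0.0057 to 0.39 for C7, -0.043 to 0.091 for C1qa, -0.11 to 0.030 for C1qb and -0.071 to 0.064 for C1qc. Sex differences ranged from -0.042 to 0.13 for C1s1 in Ctrl, and in cKO from -0.010 to 0.077 for C1s1 and -0.080 to 0.022 for Serping1. The difference between sexes ranged from -0.071 to 0.24 for C4b and the mean effect from -0.032 to 0.17 for C7. The replicate numbers in the titles name different mice. Correlations of same-numbered Ctrl and cKO mice averaged -0.0259 in males and 0.118 in females, against 0.0043 and -0.0186 for other pairs. The planned relation of C7 with C6 was not run because C6 was not tested.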

Other observations

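Cfd, encoding factor D, the protease of the alternative pathway and a product of fat cells, was at 0.870 ± 0.459 CPM in Ctrl males (n = 6), 0.883 ± 1.24 in cKO males (n = 7), 2.39 ± 0.926 in Ctrl females (n = 6) and 2.88 ± 1.48 in cKO females (n = 7). In cKO males 1 mouse, number 5, was at 3.66 CPM and the other 6 at 0.0869 to 0.705, with a mean of 0.421 ± 0.199 (n = 6). The female-minus-male log2 difference was 1.44 in Ctrl (SE 0.55, edgeR adjusted p = 0.268) and 1.69 in cKO (SE 0.51, edgeR adjusted p = 0.0715). Without cKO male 5 the cKO difference was 2.78 (edgeR adjusted p = 0.00058), and without cKO female 3 it was 1.86 (edgeR adjusted p = 0.0485). Summed fat cell markers averaged 0.833, 1.13, 1.74 and 2.28 CPM in the same 4 groups. Among cKO males the highest sum, 3.15 CPM, was in the same mouse, number 5. The part of these markers in the Cfd values was not tested.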
